A study of Mus musculus with 8 samples.

Results

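The genes described here are Egr1, Egr2 and Egr3, the corepressor genes Nab1 and Nab2, and Srf, which together make 6 of the 23143 genes in the count table. They were taken by gene symbol, not by their values, and all 6 had counts in every library. The study followed RAW264.7 cells, an established mouse macrophage line, through the first 2 h after lipopolysaccharide (LPS, from E. coli serotype O111:B4), a component of the bacterial outer membrane that is sensed by Toll-like receptor 4. Cultures received 100 ng/ml LPS for 15, 30, 45, 60, 75, 90 or 120 min, or none (0 min), and RNA depleted of ribosomal RNA was sequenced from 1 library per time point. The cells are a single line with no genetic change made for the study, the methods describe total RNA while a label calls the fraction cytoplasmic, and no replicate exists at any time. In bulk RNA, more responding cells and more mRNA per cell cannot be told apart.

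Egr1, Egr2 and Egr3 are zinc finger transcription factors that are encoded by immediate early genes and bind GC-rich sites in DNA. Their genes are classically switched on when the MAP kinase ERK phosphorylates ternary complex factors (TCFs) bound beside serum response factor, the product of Srf, at CArG boxes. Nab1 and Nab2 are corepressors that bind Egr proteins and recruit the NuRD complex through its ATPase Chd4, and Nab2 is itself known as an Egr target gene, so that the system can limit itself.

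The sites of this known circuit were looked for around annotated transcript starts of the genes. Stretches that show each kind of match are printed here, with 2 of the 3 Nab1 sites. The printed sites of Egr2, Nab1 and Srf precede a transcript start but lie inside the gene positions given below. In the RefSeq promoter windows (GRCm38.p6, 250 bases before to 50 bases after a transcript start), 4 of the 6 genes have an entry: Egr2 with 5 windows and Nab1, Nab2 and Srf with 1 each. The motifs were chosen after these windows had been seen, and both strands were searched. A CArG box was found in 4 of the 5 Egr2 windows, as 2 different boxes, and at 2 places in the Srf window, whereas 1.63% of all 32851 windows held one. It was not found in the windows of Nab1 and Nab2. In the 4 lines that follow, capitals mark the CArG box.
Egr2, plus strand, chr10:67537484-67537513: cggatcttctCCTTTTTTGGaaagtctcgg
Egr2, plus strand, chr10:67537787-67537816: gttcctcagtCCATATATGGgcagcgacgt
Srf, minus strand, chr17:46556225-46556254: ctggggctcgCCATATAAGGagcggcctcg
Srf, minus strand, chr17:46556205-46556234: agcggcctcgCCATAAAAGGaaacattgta

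The Egr consensus GCGNGGGCG lay at 3 places in the Nab1 window and at 1 place in the Srf window, and 5.55% of all windows held it. The Nab2 window held only the shorter core GCGTGGG, on the opposite strand, which 5.04% of windows contain and which overlaps the consensus where both occur. Capitals mark the site in these lines, the last of which shows the cyclic AMP response core of Egr2.
Nab1, minus strand, chr1:52500571-52500599: gccccgcggcCGCCCACGCcgggatctgc
Nab1, minus strand, chr1:52500539-52500567: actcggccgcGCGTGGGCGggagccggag
Srf, minus strand, chr17:46556245-46556273: gaccaatgggGCGGGGGCGctggggctcg
Nab2, minus strand, chr10:127666718-127666744: cccggttctgCCCACGCcctcctcccg
Egr2, plus strand, chr10:67537802-67537828: tatgggcagcGACGTCAcgggtattga
The cyclic AMP response core GACGTCA (3.21% of windows) was found in 3 of the 5 Egr2 windows and in none of the others, and 5 bases separate it from the second Egr2 CArG box. Neither TGACGTCA nor the extended Ets sequence CCGGAAGT was found in any window of these genes, and 1.79% and 3.89% of all windows hold them. Shorter Ets sequences were not searched for, so sites for TCFs beside the CArG boxes were not examined. A match describes letters in the window and does not show binding.

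With 1 library per time point no difference could be checked against replicates. The intervals given are 95% intervals of counting error alone, for ratios from the exact conditional binomial distribution and for levels from the exact Poisson distribution. A gene is termed called when its log2 ratio between 2 libraries passed 0.5 in size and an exact negative binomial test of these 2 libraries, with the spread fitted over all 8, gave an unadjusted p under 0.05; such a test compares libraries and not conditions, and no p-value is printed. Total counts ranged from 100250892 to 159077286. Rn45s, a ribosomal RNA precursor and thus a measure of how far ribosomal RNA had been removed, took 8.18% to 9.11% of counts at 0, 30, 60 and 120 min but 13.0% to 20.5% at 15, 45, 75 and 90 min, with the highest share at 75 min. Of the 10 macrophage markers, 9 had a row (not Spi1), with a summed normalized count of 738426 to 836029. None of these 9 was called at 45 min, when 2.53% of all genes were called higher and 1.02% lower. At 120 min Cd14, the LPS co-receptor, was called higher (3.65-fold) and the Fc receptor gene Fcgr1 lower (0.381-fold), against 5.19% and 4.54% of all genes. In contrast, no fibroblast or epithelial marker had more than 1 count in a library. The highest counts of a B cell and a T cell marker were 16 and 157, the latter of Lck.

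Time courses differed between the Egr genes, Srf and the NAB genes, and also within the Egr genes and within the NAB genes. The Egr genes rose first and furthest, with Egr1 in a sharp peak at 45 min, Egr3 in a broader one around 60 to 75 min and Egr2 to a high level that lasted to 120 min. Srf climbed to a plateau, 2.42-fold at 75 min, whose start depends on the scale. The NAB genes, high before stimulation, came last: Nab1 had a higher value in each successive library, up to 1.90-fold, and Nab2 stayed near its starting level up to 90 min and was 1.82-fold above it at 120 min.

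**Figure D1:**
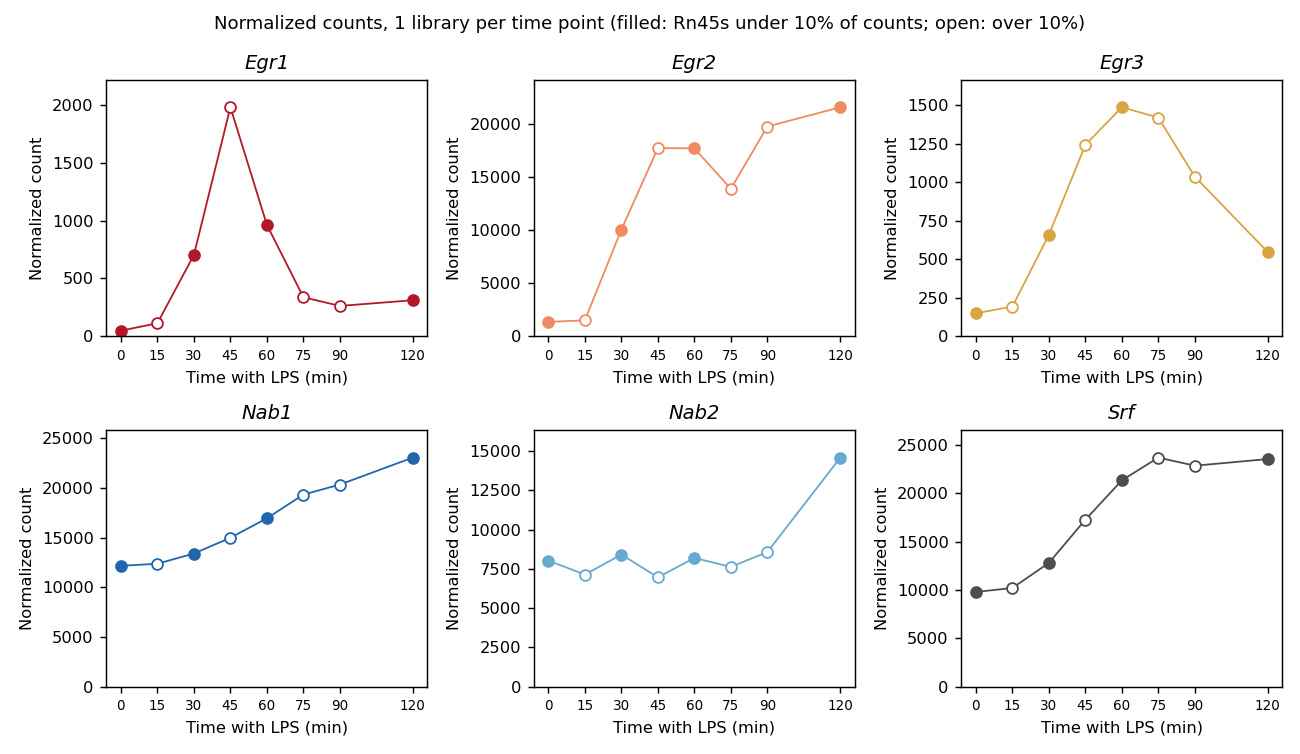
Normalized count (counts divided by the library's size factor, linear axis from 0) of each of the 6 genes against time with LPS in min, 1 point per library; filled points are libraries with Rn45s shares of 8.18% to 9.11% and open points those with 13.0% to 20.5%. Egr1 stands highest at 45 min with 1980 normalized counts, Egr3 at 60 min with 1487, and Egr2, Nab1 and Nab2 at 120 min.

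The number of the 6 genes called higher than at 0 min grew with time. At 15 min 1 gene was called, Egr1 (0.19% of all genes tested were called higher). At 30 min 3 were called, the Egr genes (0.782% of all genes), and at 45, 60 and 75 min 4, the Egr genes and Srf (2.53%, 2.28% and 3.32%). Nab1 joined at 90 min, when 5 were called (3.91%), and Nab2 at 120 min, when all 6 were (5.19%). None of the 6 was called lower than at 0 min at any time; at 45 and 120 min 1.02% and 4.54% of all genes were. Among the 12166 genes whose normalized count averaged 10 or more, which include all 6, 4.97% were called higher at 45 min and 10.0% at 120 min, against 4 and 6 of the 6 genes. Nab1 and Nab2 were not called at 120 min when libraries were scaled to total counts, with or without Rn45s, nor with a log2 limit of 1, after Benjamini-Hochberg adjustment or with 2-fold and no test, which left 4 of the 6 genes called in each case.

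**Figure D2:**
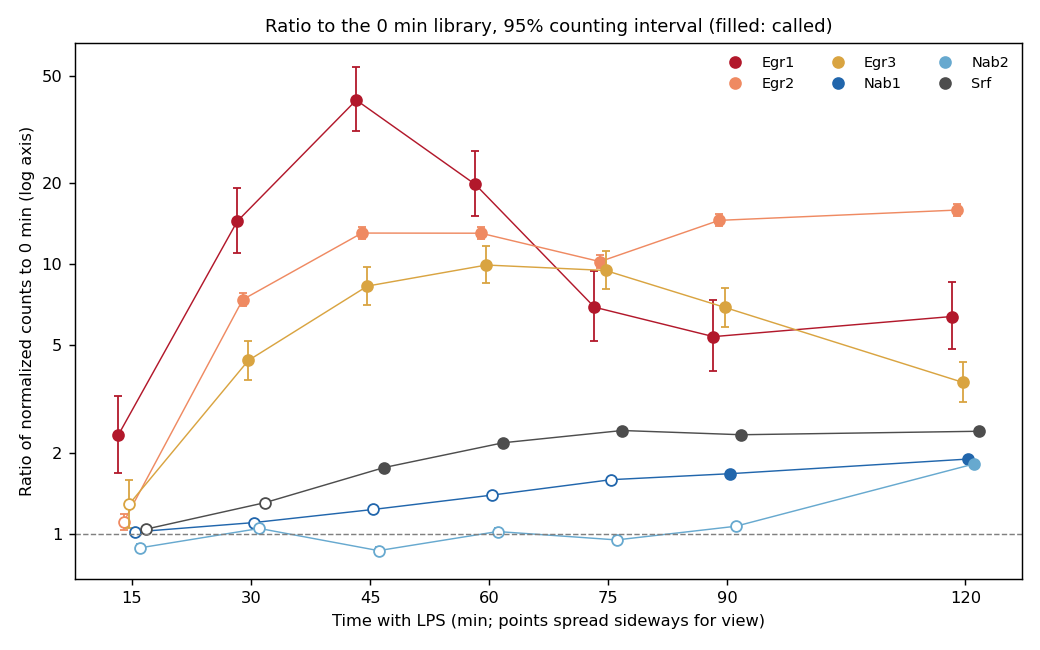
Ratio of the normalized count at each time (min with LPS) to that at 0 min, on a log axis, for the 6 genes; bars are 95% counting intervals, filled points are called and open points are not. Egr1 reaches 40.6-fold at 45 min and falls to 5.39-fold at 90 min, Egr2 stays at 10.2-fold to 15.9-fold from 45 min, and Nab2 lies between 0.867-fold and 1.07-fold until 90 min.

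Egr1, on chromosome 18 (34861207 to 34864956, plus strand, GRCm38.p6), encodes the founding member of the family. Its 57 reads in the 0 min library gave 48.8 normalized counts, and the 15, 30 and 45 min libraries held 113, 703 and 1980. In the 60, 75, 90 and 120 min libraries it had 963, 338, 263 and 312 normalized counts. It was the only one of the 6 genes called at 15 min, at 2.32-fold (1.68 to 3.24). The ratio was 14.4-fold (11.0 to 19.2) at 30 min and 40.6-fold (31.2 to 53.8) at 45 min. The peak was narrow.

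Within 15 min of its maximum the Egr1 level had dropped to 0.487 of the peak (0.451 to 0.525), and Egr1 was the only one of the 6 genes called lower at 60 min than at 45 min, as were 0.713% of all genes. That call was lost with edgeR's trended dispersion and after Benjamini-Hochberg adjustment. The level fell to 0.171 of the peak at 75 min and 0.133 at 90 min. It then settled well above the start, at 6.40-fold (4.84 to 8.61) the 0 min value at 120 min, where the ratio to 90 min was 1.19 (1.0 to 1.41). By the study's rules as applied here, the time course belongs to group g3, a maximum before 60 min followed by a fall. This group as computed here held 0.609% of all genes. The maximum rests on the 45 min library, in which Rn45s took 16.6% of counts; its part in the peak was not tested. Without that library, or with the 0, 30, 60 and 120 min libraries alone, the highest value was at 60 min (19.8-fold) and the pattern became g1, a first maximum at or after 60 min. The 60 min library, with 8.27% Rn45s, was 1.37 times as high as the 30 min one (1.25 to 1.5) and 3.09 times as high as the 120 min one (2.75 to 3.48).

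Egr2, also called Krox20 (chromosome 10, 67534469 to 67542188, plus strand), is the family member known from hindbrain and Schwann cell development and from myeloid cells. It started at 1359 normalized counts, and the 15 and 30 min libraries held 1507 and 10054. Those of 45 and 60 min held 17738 and 17715, and those of 75, 90 and 120 min held 13900, 19768 and 21588. In contrast to Egr1, Egr2 was not called at 15 min (1.11-fold, 1.03 to 1.19), rose 7.40-fold (7.02 to 7.80) by 30 min and was called at every later time.

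The 45 and 60 min values of Egr2 had a ratio of 0.999 (0.978 to 1.02), which does not differ beyond counting error. The one drop, at 75 min, was to 0.785 of the 60 min value (0.766 to 0.804), was not called, and fell in the library with the highest Rn45s share, 20.5%; its part in the drop was not tested. From 0 min the ratio was 13.0-fold at 45 and 60 min, 14.5-fold at 90 min and 15.9-fold (15.1 to 16.7) at 120 min. Egr2 belongs to g1, as do 5.42% of all genes, with its maximum in the last library, so that the series does not show where its rise ends.

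Egr3 (chromosome 14, 70077317 to 70082613, plus strand) is a factor with roles in muscle spindles and in lymphocytes. In the 0, 15, 30 and 45 min libraries it had 149.7, 193, 658 and 1242 normalized counts. It was highest after 60 min with 1487, remained close at 75 min with 1419, and declined to 1036 and then 546 in the 90 and 120 min libraries. The rise was thus slower than that of Egr1 and the fall later.

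At 15 min the ratio of Egr3 was 1.29-fold (1.05 to 1.59) and not called. The 30 and 45 min ratios were 4.40-fold and 8.30-fold, the ratio at 60 min was 9.93-fold (8.50 to 11.7), and the ratio of 75 to 60 min, 0.955 (0.882 to 1.03), was within counting error of 1. Between 60 and 120 min Egr3 fell to 0.367 of its value (0.335 to 0.402) and Egr1 to 0.324 (0.288 to 0.364). These 2 genes were called lower at 120 min than at 60 min, as were 2.51% of all genes. At 120 min Egr3 was still 3.65-fold (3.09 to 4.33) above 0 min, and its pattern is g1.

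Nab1 (chromosome 1, 52455849 to 52500712, minus strand), a NAB gene expressed in many tissues, changed slowly. Its normalized count was higher in each successive library, from 12162 without LPS through 12370, 13400 and 14984 (15, 30 and 45 min) and 16942, 19327 and 20340 (60, 75 and 90 min) to 23053 after 120 min. The ratios to 0 min were 1.02-fold (0.993 to 1.04) at 15 min, 1.39-fold at 60 min, 1.67-fold (1.63 to 1.71) at 90 min and 1.90-fold (1.86 to 1.93) at 120 min, and only the last 2 times were called. The call at 90 min was lost under both scalings to total counts, edgeR's trended dispersion, a log2 limit of 1, Benjamini-Hochberg adjustment and 2-fold with no test. Scaled to total counts, the 15 min ratio lay below 1 (log2 ratio -0.04 in place of 0.02) and the log2 ratio was 0.38 at 60 min and 0.34 at 75 min, so that the single direction depends on the scale, and with the filter on low counts, which changes the fitted spread, or without the 120 min library, 75 min was called as well.

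Nab2 lies on chromosome 10 (127660918 to 127666703, minus strand) and is the NAB gene best known as inducible by growth factors. It had 8031 normalized counts without LPS. The 15, 30 and 45 min libraries held 7136, 8417 and 6964, those of 60, 75 and 90 min held 8198, 7631 and 8575, and the 120 min library held 14591. Up to 90 min, 3 of the 6 ratios lay below 1 (0.889, 0.867 and 0.95-fold at 15, 45 and 75 min) and 3 above it (1.05, 1.02 and 1.07-fold at 30, 60 and 90 min). None of these was called. The 3 lower values came from libraries with 13.0% to 20.5% Rn45s, and so did the 1.07-fold value of 90 min (15.8%). The part of Rn45s in these values was not tested. Scaled to total counts, with or without Rn45s, the 60 and 90 min ratios also lay below 1.

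The rise of Nab2 came in the last 30 min, 1.70-fold (1.65 to 1.75) from 90 to 120 min and 1.78-fold (1.74 to 1.83) from 60 to 120 min. Of the 6 genes Nab2 was the only one called higher at 120 than at 60 min, as were 2.46% of all genes. This call was lost under both scalings to total counts, a log2 limit of 1, Benjamini-Hochberg adjustment and 2-fold with no test. It rests on the 120 min library, which had 9.11% Rn45s, and without it Nab2 was not called at any time. The gene ends tail to tail with Stat6 on the other strand, with 70 bases shared (chromosome 10, 127660918 to 127660987), and whether counting used the strand is not stated. In the transcripts matched by accession none of the 58-base stretches of Nab2 was shared with another gene on either strand, and the plus-strand genes Nemp1 and Gm16229 also overlap it in the annotation. Stat6, which encodes a transcription factor of cytokine signalling, held between 12177 and 13993 normalized counts, was at 0.891-fold at 120 min and was not called at any time.

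Srf (chromosome 17, 46546838 to 46558267, minus strand) encodes the MADS box factor that binds CArG boxes. The 0, 15 and 30 min libraries held 9795, 10204 and 12795 normalized counts, and those of 45 and 60 min 17265 and 21333. The last 3 libraries, of 75, 90 and 120 min, were level with 23687, 22846 and 23536. The rise was of intermediate speed, behind the Egr genes and ahead of the NAB genes.

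Srf was 1.31-fold (1.27 to 1.34) higher at 30 min, which was not called, and it was called at 5 times, from 45 min (1.76-fold, 1.72 to 1.81) onwards. It was not called at 45 min when scaled to total counts, with a log2 limit of 1, after Benjamini-Hochberg adjustment or with 2-fold and no test, nor at 60 min after Benjamini-Hochberg adjustment. The ratio of 120 to 75 min was 0.994 (0.975 to 1.01), within counting error, and which library of the plateau was highest changed with the scale between 75 and 120 min. Scaled to total counts the log2 ratio was already 1.03 at 60 min, against 0.94, 0.96 and 1.06 at 75, 90 and 120 min. Its pattern is g1.

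Compared per length, the order of the 6 genes before LPS was Srf, Nab1, Nab2, Egr2, Egr3, Egr1. Levels are given as rpkm, the reads per kilobase of positions in the gene's transcripts from which a 58-base read is unique, per 1000000 counts. At 0 min Srf had 34.1 rpkm (33.5 to 34.8), Nab1 28.4 (28 to 28.9) and Nab2 27.8 (27.2 to 28.3), and the intervals of Nab1 and Nab2 overlapped. Egr2 had 4.17 (3.97 to 4.38), Egr3 0.344 (0.295 to 0.399) and Egr1 0.146 (0.111 to 0.189). In resting cells the summed level of the 2 corepressor genes was 12.1 times that of the 3 Egr genes.

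This balance moved within 45 min. The summed rpkm of Egr1, Egr2 and Egr3 was 4.66, 33.8, 55.5 and 59.5 in the 0, 30, 45 and 120 min libraries. The sum of Nab1 and Nab2 was 56.2, 59.2, 51.9 and 90.7 in the same libraries. Divided by the NAB sum, the Egr sum came to 0.0829 without LPS, then 0.101, 0.570 and 1.07 (15, 30 and 45 min). Later values were 0.893, 0.656, 0.827 and 0.656 (60, 75, 90 and 120 min). This ratio passed 1 in the 45 min library alone, in which Rn45s took 16.6% of counts. Nab2 also had its lowest value relative to 0 min there, 0.867-fold. The part of Rn45s in the crossing was not tested. Both sums come from the same library, so the scale between libraries cancels in their ratio. Each sum alone is per total counts, Rn45s included, and does depend on that scale.

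Egr2 supplied most of the Egr transcripts at every time, between 85.5% (15 min) and 96.8% (120 min) of the summed rpkm. Egr1, though it had the highest ratio to 0 min, made up at most 9.38% of the sum, at 45 min, when it had 5.21 rpkm (4.97 to 5.46) against 47.8 (47.1 to 48.6) of Egr2. Srf had the highest level of the 6 in every library, 71.3 rpkm at 120 min. Egr1 and Egr3 exchanged places: Egr1 was the higher at 30 and 45 min and Egr3 at 0, 60, 75, 90 and 120 min, while their intervals overlapped at 15 min. With lengths taken from the longest transcript of each gene, Egr1 had 0.0970 rpkm at 0 min in place of 0.146, and at 30 min the order turned, with 1.37 rpkm of Egr1 against 1.46 of Egr3. Egr4, the remaining Egr gene, had 1 count at 45 min, 1 at 75 min and 0 in the other libraries, and Wt1, a relative with similar zinc fingers, had none in any; a count of 0 allows up to 3.

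**Figure D3:**
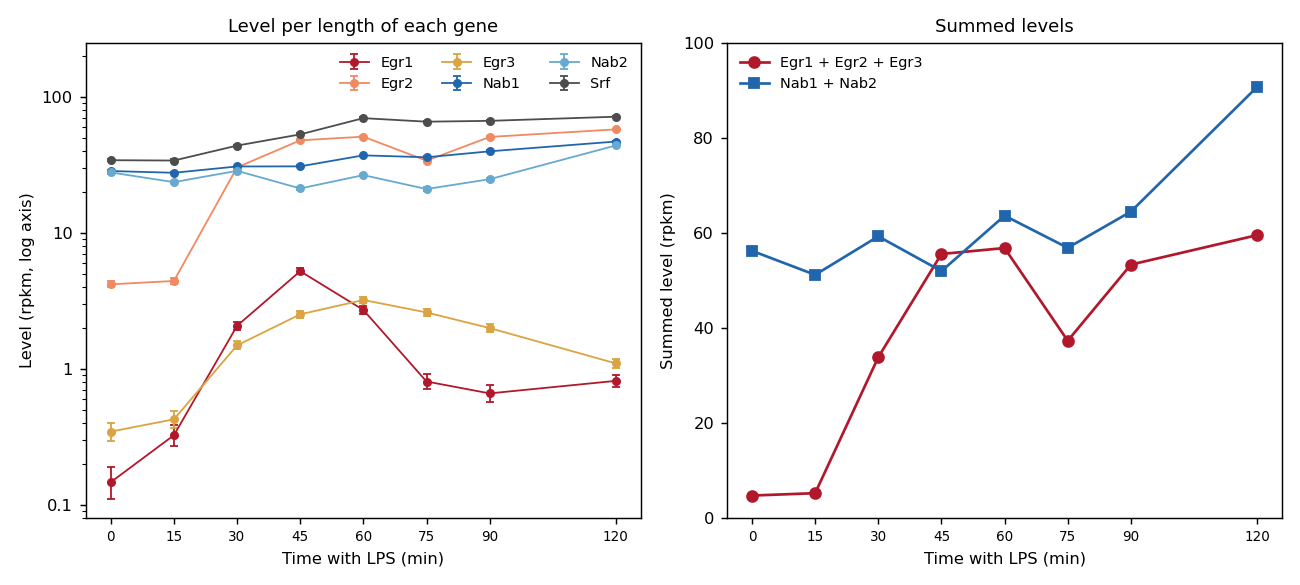
Left, level of each gene in rpkm on a log axis against time with LPS in min, with 95% Poisson intervals; right, the summed rpkm of the 3 Egr genes and of the 2 NAB genes on a linear axis. The Egr sum climbs from 4.66 to 55.5 between 0 and 45 min, where it meets a NAB sum of 51.9, and the NAB sum reaches 90.7 at 120 min.

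Genes that the wider pathway holds were described from lists made by hand, which were chosen with earlier results of these data known. Over all genes averaging 100 or more normalized counts the median log2 ratio was -0.01 at both 45 and 120 min. Rn45s took 16.6% of counts in the 45 min library and 9.11% in the 120 min library. Its part in the values of the lists was not tested. Of 14 genes of the ERK cascade with the TCFs and the SRF cofactors of the MRTF family, 3 were called higher at 45 min and none lower, against 2.53% and 1.02% of all genes. These were Map3k8 (2.45-fold), the kinase that links Toll-like receptors to ERK, Rps6ka3 (1.99-fold), an ERK-activated kinase, and Braf (1.65-fold). In the 60 min library, with 8.27% Rn45s, Map3k8 (1.20-fold), Rps6ka3 (1.25-fold) and Braf (1.45-fold) were not called. The lowest ratios at 45 min were those of Map2k2 (0.88-fold), Rps6ka1 (0.88-fold) and Map2k1 (0.94-fold), none called. At 120 min Braf and Rps6ka3 were called higher and none lower, against 5.19% and 4.54% of all genes. Of genes averaging 10 or more normalized counts, 4.97% were called higher at 45 min and 10.0% at 120 min. The list's median log2 ratio was 0.12 at 45 min and 0.08 at 120 min.

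Immediate early genes listed by hand as targets of SRF with TCFs moved most among the pathway lists. Their dependence on SRF was not tested. Of 15 genes, 13 were called higher at 45 min and none lower (2.53% and 1.02% of all genes). The median log2 ratio was 3.84 over the 14 averaging 100 or more normalized counts. Fosb, which encodes a subunit of AP-1 and had 8 reads at 0 min, was at 233-fold (118 to 540). Dusp1, a phosphatase of MAP kinases, was at 76.6-fold and Nr4a1, an orphan nuclear receptor, at 53.0-fold, with an interval (47.9 to 58.9) that overlaps that of Egr1 at 40.6-fold (31.2 to 53.8). The members not called at 45 min were Klf4 (0.915-fold) and Egr4.

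By 120 min 9 of these immediate early genes were called higher and 3 lower than at 0 min (5.19% and 4.54% of all genes). Those called lower were Fos (log2 ratio -2.06), Klf4 (0.339-fold) and Klf2 (0.585-fold). The median log2 ratio had come down to 1.53. Nr4a1 had returned to 1.15-fold (1.0 to 1.32), not called, while Dusp1 was at 27.6-fold and Mcl1, a survival gene, at 3.31-fold. Egr1, at 6.40-fold, was among the genes that fell from their peak without reaching the start.

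Genes of the cytoskeleton listed by hand as targets of SRF with MRTFs changed less, and their dependence on SRF was not tested either. Of 18, 2 were called higher at 45 min (2.53% of all genes, 4.97% of those averaging 10 or more normalized counts) and 5 at 120 min (5.19% and 10.0%). None was called lower (1.02% and 4.54% of all genes at 45 and 120 min). Over the 12 averaging 100 or more normalized counts the median log2 ratios were 0.29 and 0.61. Actg1, a cytoplasmic actin, went to 2.69-fold at 45 min and 3.32-fold at 120 min, and Zyx, a focal adhesion protein, to 2.17-fold and 3.46-fold. Myh9, a non-muscle myosin, was at 1.46-fold at 45 min, not called, and 1.77-fold at 120 min, called. The lowest ratios at 45 min were those of Tpm1 (0.88-fold), Tagln2 (0.96-fold) and Tpm3 (0.96-fold), none called then or at 120 min. The list holds 3 genes without a count in any library, Fhl2, Ctgf and Myl9.

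Of 18 genes reported as Egr targets in various cells, 7 were called higher at 45 min (2.53% of all genes) and 11 at 120 min (5.19%). None was called lower (1.02% and 4.54% of all genes). Over the 13 averaging 100 or more normalized counts the median log2 ratios were 0.63 and 1.37. Tnf, the cytokine, was at 30.3-fold at 45 min, 9.50-fold at 60 min and 40.3-fold at 120 min. Cdkn1a, a cell cycle inhibitor, stood at 3.91-fold at 45 min and 5.22-fold at 120 min, and Vegfa, an angiogenic factor, at 2.85-fold and 1.85-fold. Plau and Sod1 were not called at either time (0.86-fold and 0.99-fold at 45 min), and Ndrg1, at 0.99-fold at 45 min, was called at 120 min (2.39-fold).

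Of the 10 genes of the NuRD complex, which NAB proteins recruit, none was called in either direction at 45 or 120 min, with median log2 ratios of 0.14 and 0.11. Of all genes, 2.53% were called higher and 1.02% lower at 45 min, and 5.19% and 4.54% at 120 min. Among the 12166 genes averaging 10 or more normalized counts, 4.97% were called higher at 45 min and 10.0% at 120 min. Of these 12166 genes, 217 were called lower at 45 min and 988 at 120 min. At these shares few of any 10 genes would be called. Chd4, its ATPase, was at 1.25-fold at 45 min and 1.43-fold at 120 min, and the deacetylase genes Hdac1 and Hdac2 were at 1.13-fold and 0.97-fold at 45 min. Gatad2b had the highest ratio of the list at 45 min, 1.34-fold, and Mta2 (1.0-fold) and Rbbp7 (0.97-fold) were among the lowest.

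**Figure D4:**
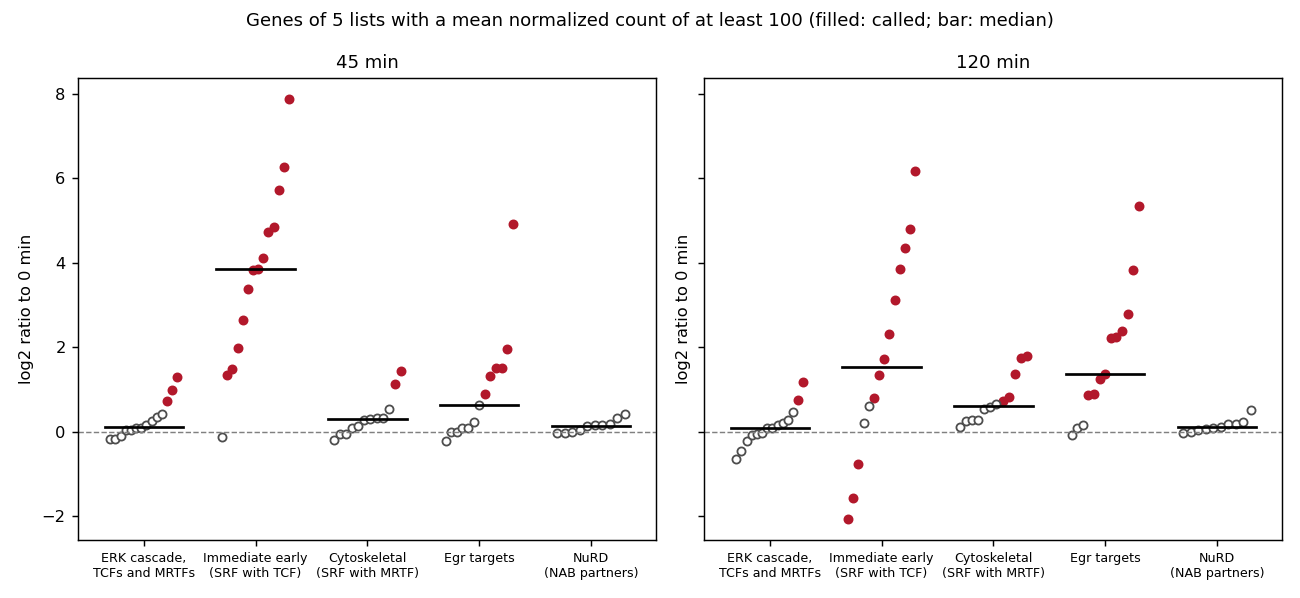
log2 ratio to 0 min at 45 min (left) and 120 min (right) of the genes of 5 lists that average 100 or more normalized counts; each point is a gene, filled if called, and bars are list medians. The immediate early genes have medians of 3.84 and 1.53 and the reported Egr targets 0.63 and 1.37. No gene of the NuRD list is called, while of all genes 2.53% (45 min) and 5.19% (120 min) are called higher and 1.02% and 4.54% lower.

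For each of the 6 genes the 3 most similar time courses were sought among 10488 other genes averaging 100 or more normalized counts, by Pearson's r of log2(normalized count + 1) over the 8 libraries. These values are descriptions, since the libraries are successive times that share depth and Rn45s share. Egr1 was closest to Btg2 (r = 0.987), an antiproliferative gene that reached 30.4-fold at 45 min, then to Gem (0.961) and Apoe (0.960). Egr2 was closest to Tnfsf9 (0.994), Cxcl2 (0.989) and Map1b (0.988), all highest at 120 min among the 30, 45, 60, 90 and 120 min libraries. The neighbours of Egr2 differed in size, since Cxcl2, a chemokine, reached 1032-fold at 120 min and Tnfsf9, a costimulatory ligand, 3.75-fold.

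Egr3 was closest to Insig1 (0.982), a regulator of sterol synthesis that reached 4.81-fold at 60 min, followed by Tiparp (0.979) and Brd2 (0.978). For Nab1 the nearest were Exosc10, Zc3h12c and Mtmr7 (0.998 each), of which Zc3h12c reached 16.0-fold and Exosc10 1.38-fold at 120 min. Nab2 was closest to Nsmf (0.985), Ppan (0.983) and Tor1b (0.977), which at 120 min stood at 1.41-fold, 1.36-fold and 1.25-fold. For Srf the nearest were Herpud1 (0.998), Slc20a1 (0.997) and 1700012B15Rik (0.996). All of these r values describe shape and not size.

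The pentamer AUUUA, the core of AU-rich elements that shorten the life of many immediate early mRNAs, was counted in the annotated 3′UTR of the longest matched transcript. Egr1 held 2, Egr2 3, Egr3 7, Nab1 6, Nab2 3 and Srf 1, so that every one of the 6 had at least 1, as did 69.9% of 10819 genes. Per kilobase of 3′UTR the values were 1.68 for Egr1, 2.50 for Egr2, 2.65 for Egr3, 3.12 for Nab1, 3.99 for Nab2 and 1.33 for Srf, against a median of 1.33 over these genes.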

How the data were processed

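RNA of RAW264.7 cells was sequenced at 8 time points, 1 library each, and grouped by the titles. The authors deposited raw counts per gene symbol. Per the study's methods and the labels, libraries were made with a directional kit after ribosomal RNA depletion, 58-base reads were aligned with Bowtie to RefSeq transcripts of mm10 (GRCm38) with at most 2 mismatches, and reads matching more than 1 symbol were discarded. The submitters' processing notes name CASAVA 1.8.2 and DESeq 1.10.1. No sample column was left unused, and 6176 genes had no count in any library.

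From the counts, size factors (median of ratios), a dispersion trend over the 8 libraries treated as replicates (0.0287 + 0.853 divided by the mean) and exact negative binomial tests of all 28 pairs were computed across all 23143 genes in R 4.3.3, after the study's settings: log2 ratio beyond 0.5 and unadjusted p under 0.05. The patterns are a first maximum (g1) or minimum (g2) at or after 60 min, or an earlier maximum (g3) or minimum (g4) that is followed by a reversal; genes without an extremum are g0. The code was tested on simulated data. Alternatives used total counts, edgeR 4.0.16 (TMM, trended dispersion), other limits, a filter on low counts and libraries left out. Intervals, levels and lists were computed in Python 3.11.15 (scipy 1.17.1, pandas 2.3.3); intervals and floors cover counting error only. Ratios have no pseudocount.

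The 6 genes, the lists and the tests were chosen with earlier results of these data known. All 6 genes were named. Of each pathway list the counts called were given, with the 3 highest and 3 lowest ratios at 45 min among genes averaging 100 or more normalized counts; Fos and Stat6 were named after their values were seen. Promoter windows and gene positions came from RefSeq (GRCm38.p6); transcript lengths and 3′UTRs came from GENCODE M21 transcripts matched by RefSeq accession.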

Additional observations from a re-analysis of the deposited data

How the results depend on the processing

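Of 256 counts of the 6 genes called under alternatives, 248 stayed within 1.5 times the count given. The others became 0: the 15 min count after Benjamini-Hochberg adjustment (Egr1), the 120 against 60 min count (Nab2) under both scalings to total counts, a log2 limit of 1, Benjamini-Hochberg adjustment and 2-fold with no test, and the 60 against 45 min count (Egr1) under edgeR's trended dispersion and Benjamini-Hochberg adjustment. Scaled to total counts the log2 ratio of every gene moved by -0.19 at 45 min, -0.33 at 75 min and -0.20 at 120 min, and without Rn45s by -0.05, -0.13 and -0.19; TMM moved it by at most 0.03 in size. Relative to that shift the order of the 6 genes in a library is the same. Many of the 248 are counts of 0 that stayed 0, namely those lower than at 0 min at every time and those higher at 60 than at 45 min. A fall from 6 to 4 genes also lies within the limit of 1.5 times. Within the 248, Nab1 at 90 and 120 min, Nab2 at 120 min and Srf at 45 and 60 min lost calls under some alternatives. Of 168 log2 ratios to 0 min, 118 stayed inside the counting interval of the value given, and 6 changed sign, all uncalled ones of Nab1, Nab2 or Srf. Of 12 levels at 0 min with another length or scale, 6 stayed inside the counting interval. Over all genes, 586 were called higher at 45 min, and 293, 449, 422, 334, 168 and 1435 with total counts, total counts without Rn45s, edgeR's dispersion, a log2 limit of 1, Benjamini-Hochberg adjustment and 2-fold with no test. No paired analysis was possible because each time point has 1 library. Depth limits Egr1 most, with 57 reads at 0 min. The cause of these changes was not tested beyond the scales' own arithmetic.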
